A study of Mus musculus with 8 samples.

Results

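The genes described here are 8 genes for liver-enriched transcription factors, taken by their mouse symbols: Hnf4a, Foxa1, Foxa2, Foxa3, Cebpa, Cebpb, Onecut1 and Nr1h4. All 8 were found in the count table, which lists 23403 genes. They were followed in Hepa-1c1c7 (Hepa-1) cells, a single mouse hepatoma line, after exposure to hexavalent chromium, Cr(VI). The RNA-seq comparison set 2 libraries of cells exposed for 90 minutes to 25 µM Cr(VI) against 2 control libraries, and the labels do not tie these controls to a regimen. FAIRE-seq, which recovers the DNA that is not held by proteins after formaldehyde crosslinking, had 1 library per condition: the same acute exposure with its control, and 20 passages in 0.5 µM Cr(VI) with control cells passaged without chromium. RNA-seq of the 0.5 µM regimen was not analysed here.

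Hepatocytes hold their identity through a small set of transcription factors that bind each other's genes as well as the genes of plasma proteins, lipoproteins and bile acid metabolism. HNF4A and FXR, the product of Nr1h4, are nuclear receptors. The FOXA proteins open compacted chromatin for other factors, the C/EBP proteins are leucine zipper factors of metabolic and acute-phase genes, and ONECUT1 (HNF6) acts in hepatocyte and bile duct development. Hepatoma lines often keep only some of these factors.

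Sequences of 3 regions are shown, since the results below return to them. Foxa1 and Nr1h4 were the genes of the 8 with lower values in both treated libraries, and the promoter of Foxa1 was the only 1 of 11 promoter windows of the 8 genes that held a FOXA word. The third region is the centre of the only FAIRE peak, called in treated against control cells, at any of the 8 genes. The promoters run from 250 bases before to 50 bases after a RefSeq start site in GRCm38.p6, the assembly also called mm10, and are read on the strand of the gene. Capitals mark TGTTTAC, the core letters of a FOXA site, here on the opposite strand. The Foxa1 window at chr12:57546062-57546361 and the Nr1h4 window at chr10:89506609-89506908 both lie on the minus strand. Each surrounds a start inside the gene, which reaches upstream to 57548029 for Foxa1 and 89533645 for Nr1h4. No window at those outer ends was among the 11, so their sequence was not searched. The peak centre at chr7:19024020-19024319 is read on the plus strand.
Foxa1 promoter: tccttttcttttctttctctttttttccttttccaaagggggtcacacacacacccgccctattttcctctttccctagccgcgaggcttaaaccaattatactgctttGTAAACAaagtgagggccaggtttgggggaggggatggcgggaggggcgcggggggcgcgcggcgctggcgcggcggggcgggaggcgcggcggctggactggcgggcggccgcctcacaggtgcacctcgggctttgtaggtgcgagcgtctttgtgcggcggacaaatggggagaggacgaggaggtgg
Nr1h4 promoter: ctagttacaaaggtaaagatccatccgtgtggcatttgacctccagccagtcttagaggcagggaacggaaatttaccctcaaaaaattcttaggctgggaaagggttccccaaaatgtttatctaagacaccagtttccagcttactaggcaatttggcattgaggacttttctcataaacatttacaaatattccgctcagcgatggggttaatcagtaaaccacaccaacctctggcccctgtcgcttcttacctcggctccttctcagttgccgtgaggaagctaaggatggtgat
FAIRE peak beside Foxa3, central 300 bases: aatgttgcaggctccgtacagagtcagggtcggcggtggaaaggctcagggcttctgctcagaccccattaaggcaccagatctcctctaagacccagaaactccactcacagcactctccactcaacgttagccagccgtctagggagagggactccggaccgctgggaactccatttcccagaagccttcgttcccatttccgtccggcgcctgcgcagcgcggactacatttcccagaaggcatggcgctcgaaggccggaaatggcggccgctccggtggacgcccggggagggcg

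The word TGTTTAC, searched on both strands, occurred in 3.65% of 32851 RefSeq promoter windows of the same length. In the Foxa1 window it began 141 bases before the start site. Neither the HNF4 letters CAAAGTCCA, found in 0.475% of all windows, nor the C/EBP palindrome TTGCGCAA, found in 0.183%, occurred in the 11 windows. The looser C/EBP letters TTGCNNAA, in which every TTGCGCAA is also counted, stood in 10.8% of all windows, and the AP-1 letters TGACTCA or TGAGTCA in 5.2%. None of the 11 windows held either of these. The GC content of the Foxa1 window was 62.33% and that of the Nr1h4 window 45.67%, against a median of 52.67% over all windows. The Cebpb window was the richest of the 11 in G and C, at 80.67%.

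RNA-seq libraries held 32319676 to 37696116 counts. Levels are given below as CPM, that is, counts scaled to library size with TMM factors. A floor of 3 counts stands for 0.0767 to 0.104 CPM, depending on the library. The treated libraries lay farther from each other than the controls did, with 1404 genes over 2-fold apart between the treated libraries and 83 between the controls. Where the labels do not say that libraries came from separate cultures, p-values measure only the spread between these libraries. In bulk RNA, fewer cells of a type and less RNA per cell cannot be told apart. Alb stood at 905 and 948 CPM in control cells, while Apoa1, another hepatocyte marker, had 0 counts there. The summed level of 12 hepatocyte markers was 7411 and 8706 CPM in treated and 4175 and 4310 CPM in control cells. In edgeR 4 of the 10 tested were called, beside 4.63% of all tested genes. Alb alone stood at 3667 and 3550 CPM in treated cells. Summed levels of 9 fibroblast and stellate cell markers were 1300 and 1429 CPM against 712 and 723 CPM (1 of 7 tested called). Dcn, the 1 called, made up 959 and 998 CPM of this against 436 and 443 CPM. For 5 cholangiocyte markers the sums were 981 and 1305 CPM against 1503 and 1553 CPM (0 of 4 tested). For 6 macrophage markers they were 44.9 and 63.5 CPM against 63.1 and 63.0 CPM (0 of 3 tested). For 5 endothelial markers they were 2.04 and 2.52 CPM against 0.690 and 0.844 CPM (1 of 1 tested). Ptprc had at most 3 counts, Epcam at most 2 and Cdh5 0 in every library. Other markers of the same lists were expressed, such as Csf1r (1098 to 1938 counts), Krt7 (19820 to 31619) and Pecam1 (17 to 65). The part of these marker differences in the results below was not tested.

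**Figure D1:**
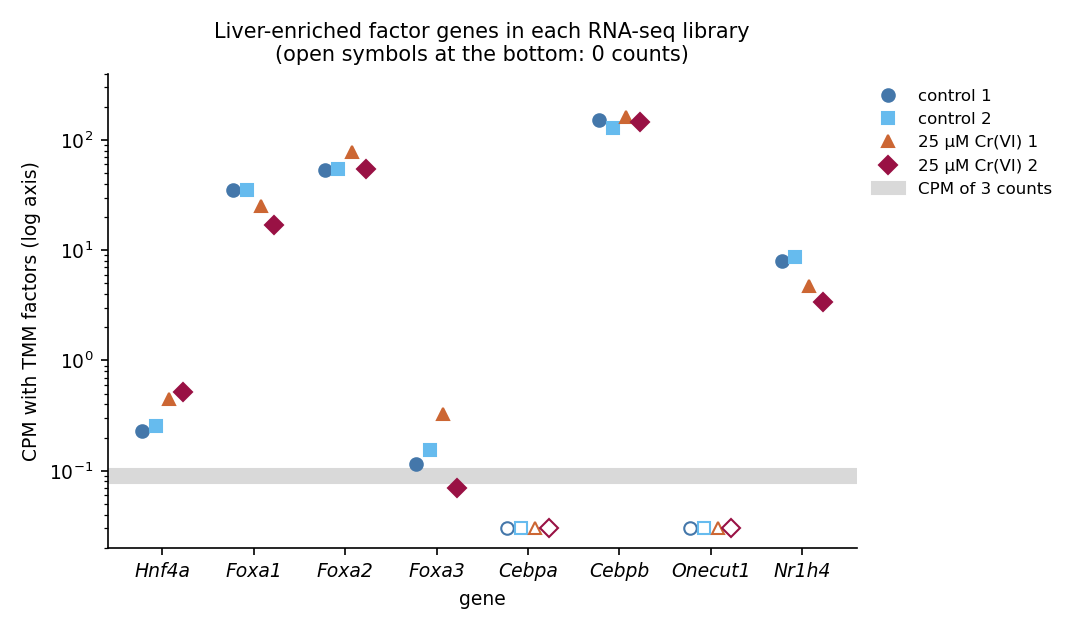
Level of each of the 8 genes in each RNA-seq library, in CPM on a log axis, with controls in blue and 25 µM Cr(VI) in orange and red. Open symbols stand for 0 counts and the grey band for the CPM of 3 counts. Cebpb, Foxa2, Foxa1 and Nr1h4 lie far above the band, Hnf4a and Foxa3 near it, and Cebpa and Onecut1 at 0.

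No gene of the 8 was called in the comparison of 25 µM Cr(VI) with control, but Foxa1 and Nr1h4 were lower in both treated libraries than in both controls. Foxa1 stood 1.67-fold lower and Nr1h4 2.03-fold lower after 90 minutes. Foxa2 and Cebpb, the most abundant of the 8, were at or slightly above control levels. Hnf4a and Foxa3 were near the detection limit, and Cebpa and Onecut1 had no counts. Of the 8 genes, 5 passed the filter on low counts, 1 of them (Hnf4a) only through its treated libraries. EdgeR's quasi-likelihood test with Benjamini-Hochberg adjustment called 0 of these 5 at an adjusted p under 0.05, beside 4.63% of the 13619 genes tested. An unadjusted p under 0.05 was reached by 3 of the 5, Hnf4a among them, beside 4176 of all 13619. DESeq2 called 2 of the 6 that it tested, Foxa1 and Nr1h4, where it called 13.8% of all its tested genes. Both treated libraries lay outside both controls in 4 of the 5 tested genes, 2 higher and 2 lower, beside 66.3% of all tested genes. The median log2 fold change of the 5 was 0.13, beside -0.0047 over all tested genes. Without genes that passed the filter only through treated libraries, a choice made after the values were seen, it was -0.30 over 4 genes, beside -0.025 over all such genes, so the sign of the median rested on Hnf4a.

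Of the nuclear receptor genes, Hnf4a was scarce and Nr1h4 well above the detection limit. Hnf4a, whose product sets the hepatocyte program, lies at chr2:163506811-163572907 on the plus strand. It had 15 and 15 counts in the treated and 8 and 10 counts in the control libraries, which are 0.443 and 0.518 CPM against 0.230 and 0.256 CPM. Both treated libraries were above both controls, by a few reads in each. The fitted log2 fold change was 0.97 (SE 0.35, 95% interval 0.029 to 1.91), with an adjusted p of 0.155 in edgeR and 0.624 in DESeq2. Hnf4a entered the edgeR test only through its treated libraries, where it was higher. Neither the separation nor this interval is therefore support for a rise. Hnf4aos, an antisense gene over Hnf4a, had 4, 2, 1 and 1 counts in the same order of libraries, and whether the authors' counting used the strand of the reads is not given in the sources used here.

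Nr1h4 encodes FXR, the bile acid receptor, and lies at chr10:89454234-89533645 on the minus strand. Reads numbered 160 and 98 in the treated libraries, against 276 and 336 in the controls. In CPM these were 4.73 and 3.38 CPM against 7.94 and 8.59 CPM, so the groups did not overlap, and the second treated library was the lowest. The mean was 4.06 ± 0.952 CPM (SD, n = 2) against 8.27 ± 0.463 CPM (SD, n = 2). The log2 fold change was -1.02 (SE 0.24, 95% interval -1.67 to -0.38), with an adjusted p of 0.0852 in edgeR, over the threshold of 0.05. DESeq2 gave -1.03 with an adjusted p of 0.0277, so the call rested on the test used. In edgeR without the first treated library the log2 fold change was -1.28, and without the second it was -0.81. The spread then came from the controls alone, and both passed the threshold. Without the first or the second control library the adjusted p was 0.464 and 0.557 (edgeR).

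Foxa1, Foxa2 and Foxa3 are given in turn. Foxa1, at chr12:57540628-57548029 on the minus strand, encodes a factor that opens chromatin at liver enhancers. It had 846 and 490 counts after treatment and 1221 and 1362 counts in control cells. This gave 25.0 and 16.9 CPM against 35.1 and 34.8 CPM. The controls were nearly equal, and both treated libraries lay below them with a wide gap between themselves. Its mean was 20.96 ± 5.72 CPM (SD, n = 2) in treated and 34.98 ± 0.201 CPM (SD, n = 2) in control cells. The log2 fold change was -0.74 (SE 0.22, 95% interval -1.33 to -0.14), with an adjusted p of 0.122 in edgeR and 0.0464 in DESeq2. Leaving out the first treated library moved the edgeR value to -1.04 and leaving out the second moved it to -0.49, both past the threshold with the spread taken from the controls alone. Without the first or the second control library the adjusted p was 0.529 and 0.522 (edgeR). Ttc6, which shares 63 exon bases with Foxa1 on the opposite strand, had 8, 8, 18 and 18 counts, few beside those of Foxa1.

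Foxa2, at chr2:148042877-148046969 on the minus strand, encodes the FOXA factor that is also active in bile acid and glucose homeostasis. It had 2611, 1577, 1842 and 2116 counts. The levels were 77.2 and 54.4 CPM after treatment, and 53.0 and 54.1 CPM in control cells. Only the first treated library stood clearly above the controls. The second exceeded the higher control by less than the controls differed from each other. The log2 fold change was 0.30 (SE 0.20, 95% interval -0.23 to 0.83; adjusted p = 0.361, edgeR). It was 0.034 without the first treated library and 0.52 without the second, the latter past the threshold with the spread of the controls alone.

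Foxa3, at chr7:19013283-19023539 on the minus strand, encodes the third FOXA protein, found in liver and gut. It had 11 and 2 counts after treatment and 4 and 6 counts in control cells, or 0.325 and 0.0691 CPM against 0.115 and 0.153 CPM. The groups overlapped, with the highest and the lowest value both among treated libraries. It did not pass the filter and was not tested.

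The C/EBP genes lay at opposite ends of the scale. Cebpb, an intronless gene at chr2:167688915-167690432 on the plus strand, encodes the C/EBP factor of acute-phase and stress responses. It had 5513 and 4235 counts after treatment and 5323 and 5062 counts in control cells, which are 163 and 146 CPM against 153 and 129 CPM. The groups overlapped. The means were 154.6 ± 11.8 CPM and 141.3 ± 16.7 CPM (SD, n = 2 each). The log2 fold change was 0.13 (SE 0.14, 95% interval -0.24 to 0.50; adjusted p = 0.563, edgeR). This interval held neither a doubling nor a halving of the level. Without the second control library it was -0.0053, and without the second treated library 0.21, the latter past the threshold with the spread of the controls alone.

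Cebpa, the C/EBP factor of differentiated hepatocytes, is also intronless and lies at chr7:35119293-35121928 on the plus strand. It had 0 counts in all 4 libraries. If reads of the gene were counted as for other genes, this allows a level of up to 0.0767 to 0.104 CPM (3 counts), but whether the authors' counting missed the gene was not tested. Onecut1, at chr9:74861921-74889648 on the plus strand, likewise had 0 counts in all 4, with the same limit. Over the whole count table, 4539 genes had no counts in any library. No comparison between treated and control cells can be made for either gene.

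Among the 5 tested genes, the gap between the treated libraries exceeded that between controls in 4. From the first to the second treated library, the level differed by -0.56 log2 units for Foxa1, -0.50 for Foxa2, -0.48 for Nr1h4, -0.16 for Cebpb and 0.20 for Hnf4a. From the first to the second control library the same differences were -0.012, 0.031, 0.11, -0.24 and 0.12. The controls were thus closer together for Foxa1 and Foxa2 than for the others.

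Per length of exon sequence, in RPKM, the order of the genes in control cells was Cebpb, Foxa2, Foxa1, Nr1h4, and then Foxa3 and Hnf4a. Cebpb stood at a mean of 93.1 RPKM, with 100.9 and 85.3 RPKM in the controls, above 94.2% of the tested genes. Foxa2 followed at 22.6 ± 0.340 RPKM, above 76.0%, and Foxa1 at 10.1 ± 0.0579 RPKM, above 58.2%. Nr1h4 stood at 3.16 ± 0.177 RPKM, above 34.8% of the tested genes. These 4 levels were separated by more than their spread, whereas Foxa3 at 0.0658 ± 0.0133 RPKM and Hnf4a at 0.0516 ± 0.00386 RPKM, each of at most 10 counts, were not clearly apart. In treated cells the first 4 kept this order, at 102 ± 7.79, 27.8 ± 6.78, 6.03 ± 1.65 and 1.55 ± 0.363 RPKM.

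**Figure D2:**
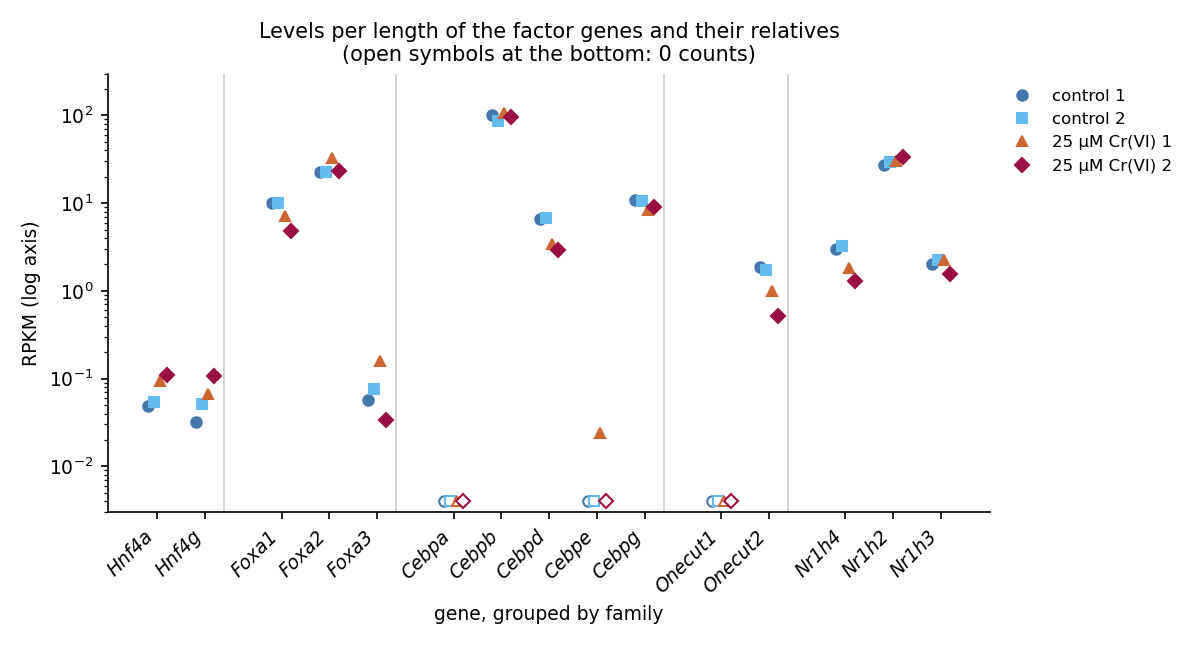
Level per exon length, in RPKM on a log axis, of the 8 genes and their closest relatives in each RNA-seq library, grouped by family. Open symbols at the bottom stand for 0 counts. Onecut2 and Cebpd are present where Onecut1 and Cebpa have no counts, and Foxa1, Cebpd, Onecut2 and Nr1h4 are lower in both treated libraries.

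Relatives of the 8 were set beside them to show which members of each family the cells expressed. They were named after their values were seen. Onecut2, the paralog of Onecut1, had 910 and 945 counts in control and 472 and 206 in treated libraries (log2 fold change -1.25, SE 0.35, adjusted p = 0.109, edgeR). Cebpd, an acute-phase C/EBP gene, had 521 and 592 counts in control and 262 and 189 in treated libraries (log2 fold change -1.08, SE 0.17, adjusted p = 0.0510, edgeR). Both were lower in both treated libraries without passing the threshold in edgeR, while DESeq2 called both. Hnf4g, the paralog of Hnf4a, was as scarce as Hnf4a, at 0.0418 ± 0.0137 RPKM in controls. Of the oxysterol receptors related to Nr1h4, Nr1h2 stood at 28.4 ± 1.24 RPKM and Nr1h3 at 2.14 ± 0.167 RPKM.

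The other liver transcription factors, a list of 30 genes, were tested to place the 8 among their kind. In it 22 genes passed the filter, 2 only through treated libraries, and 1 rose, none fell and 21 did not pass the test in edgeR, a share near the 4.63% of all tested genes. The median log2 fold change was 0.15. Tbx3, a T-box repressor of liver development, was the gene that rose. Its levels were 243 and 196 CPM after treatment and 75.6 and 75.6 CPM in control cells, a clear separation, with a log2 fold change of 1.54 (SE 0.15, adjusted p = 0.0312, edgeR). Nr3c1, the glucocorticoid receptor, was one of the most abundant of the list and its groups overlapped (log2 fold change -0.067, SE 0.22, adjusted p = 0.856, edgeR). DESeq2 called 6 of the list, 4 higher and 2 lower, where it called 13.8% of its tested genes. Besides Tbx3 these were Cebpd, Hhex, Onecut2, Rxrb and Tef. Gata6 and Prox1 had 0 counts in all libraries.

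**Figure D3:**
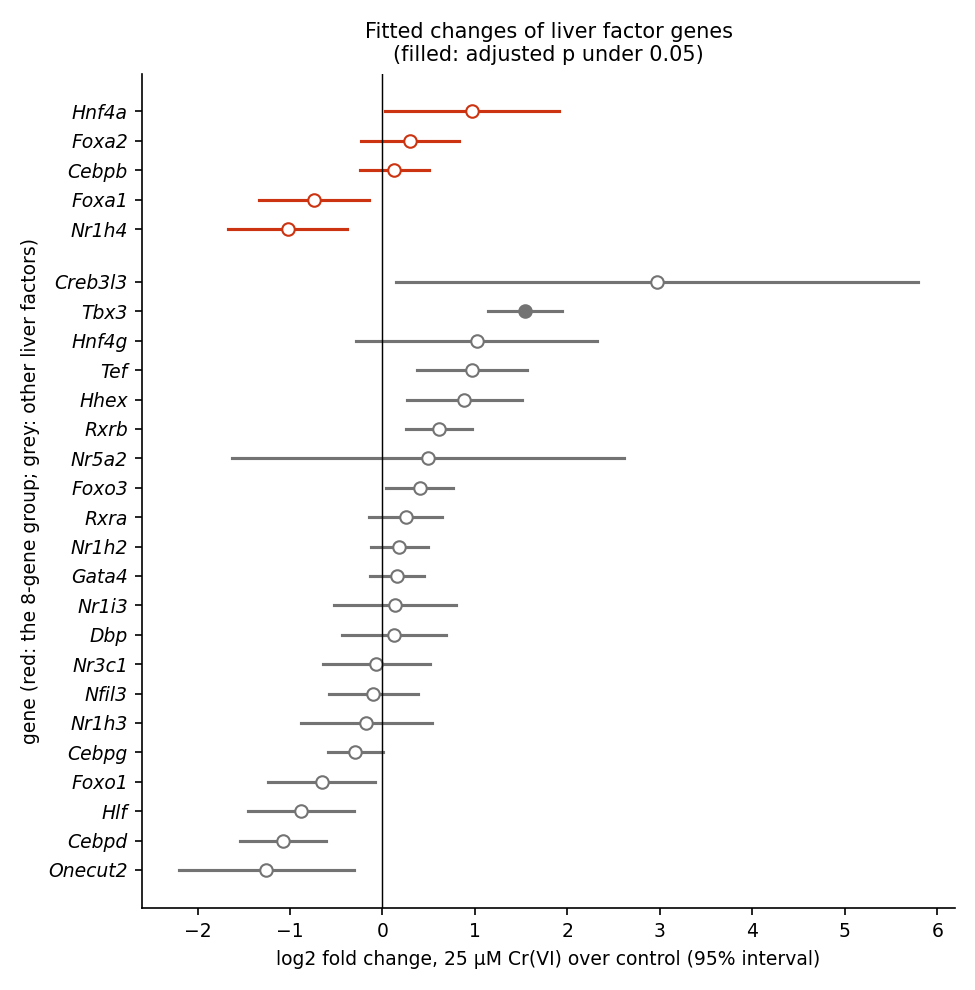
Fitted log2 fold changes of 25 µM Cr(VI) over control with 95% intervals from edgeR, for the 5 tested genes of the 8 (red) and tested genes of the list of other liver factors (grey). The filled symbol marks an adjusted p under 0.05, which only Tbx3 reached among those drawn, at 1.54. The intervals of Foxa1 and Nr1h4 lie below 0 and those of Foxa2 and Cebpb cross it.

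Proteins that work with these factors or oppose them formed a list of 16 genes, 15 of them tested and 0 called in edgeR. An unadjusted p under 0.05 was reached by 2 of the 15, beside 4176 of the 13619 genes tested. The median log2 fold change of the list was -0.042. Trib1, a pseudokinase that brings C/EBP-alpha to degradation, and Ncoa3, a coactivator of nuclear receptors, were the most abundant. Their log2 fold changes were 0.42 (SE 0.17, adjusted p = 0.184, edgeR) and 0.28 (SE 0.18, adjusted p = 0.345, edgeR). DESeq2 called 2 of the list, Ppargc1a, which encodes the coactivator PGC-1alpha, and Sirt1, a deacetylase that acts on it, a share near the 13.8% it called of all its tested genes. In edgeR these had log2 fold changes of -0.78 (adjusted p = 0.123) and 0.63 (adjusted p = 0.0609), in opposite directions.

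Genes known as targets of the factors were followed in 4 lists, some genes standing in more than one. The lists were chosen with earlier results of these data known, so their counts describe the listed genes only. Over all tested genes edgeR called 4.63%, and the median log2 fold change was -0.0047. The list of HNF4A targets held 16 genes, of which only 6 passed the filter, 2 rose and none fell, with a median log2 fold change of 1.32 over the 6. Apob, the structural protein of very low density lipoprotein, had 635 and 346 counts in treated and 23 and 26 in control libraries (log2 fold change 4.53, SE 0.33, adjusted p = 0.0282, edgeR). Ttr, the thyroxine carrier transthyretin, had 61 and 57 counts against 12 and 13 (log2 fold change 2.46, SE 0.29, adjusted p = 0.0332, edgeR). Both were thus scarce in control cells, and a link to the level of Hnf4a was not tested. Mttp, which loads lipid onto apolipoprotein B, was the other abundant gene of the list, with a log2 fold change of 0.92 (SE 0.22, adjusted p = 0.0843, edgeR). Without either control library Ttr was no longer called and Apob was. Apoc3, Cyp8b1, F9 and Otc had 0 counts in all libraries.

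The list of FOXA targets held 8 genes, 5 of them tested, of which 2 rose and none fell, beside 4.63% of all tested genes called. Of the 5, 2 passed the filter only through treated libraries. The median log2 fold change was 2.04, which is the value of Igfbp1, one of those 2, and 1.96 without them. Alb, the gene of serum albumin, stood at 3667 and 3550 CPM in treated and 905 and 948 CPM in control libraries (log2 fold change 1.96, SE 0.20, adjusted p = 0.0317, edgeR), and Ttr was the other. Alb was higher in both treated libraries, in which Foxa1 was lower and Foxa2 level or higher. Whether these differences are linked was not tested. Afp, the fetal counterpart of albumin, overlapped between the groups (log2 fold change 0.034, SE 0.18, adjusted p = 0.918, edgeR). Without the first or the second control library neither Alb (adjusted p = 0.243 and 0.214, edgeR) nor Ttr (adjusted p = 0.216 and 0.226, edgeR) passed the threshold.

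Of the 14 C/EBP targets 7 were tested, and 4 rose, 1 fell and 2 did not pass, beside 4.63% of all tested genes called. The median log2 fold change was 2.44, and 2 of the 7, Fgg and Tat, passed the filter only through treated libraries. Without these the median was 1.96. The 4 were Fgg and Fgb, chains of fibrinogen, Hp, which encodes haptoglobin, and Alb. Fgb had 635 and 595 counts in treated and 131 and 135 in control libraries (log2 fold change 2.44, SE 0.17, adjusted p = 0.0282, edgeR). Fgg had 224 and 309 counts against 8 and 8, with a log2 fold change of 5.29 (SE 0.40, adjusted p = 0.0282, edgeR). Since Fgg entered the test only through its treated libraries, its call, counted among the 4, is no support for a rise. Hp had 188 and 160 counts against 31 and 34, with a log2 fold change of 2.65 (SE 0.22, adjusted p = 0.0282, edgeR). Saa3, an inducible serum amyloid gene, fell from 318 and 347 counts in control to 93 and 92 in treated libraries (log2 fold change -1.60, SE 0.19, adjusted p = 0.0350, edgeR). Acute-phase genes of the list were thus found in both directions. The RNA of Cebpb overlapped between the groups, and a link between it and these genes was not tested. Lcn2, lipocalin, was also lower in both treated libraries (log2 fold change -1.09, SE 0.31, adjusted p = 0.109, edgeR). Without the first or the second control library Saa3 (adjusted p = 0.156 and 0.137, edgeR) and Alb were no longer called, and 3 of the 5 remained.

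The list of bile acid genes under FXR held 16, 5 of them tested. Of these none rose and 1 fell, beside 4.63% of all tested genes called. The list holds genes that FXR activates and genes that it represses through SHP, such as Cyp8b1, so its median of -0.064 joins both kinds. Abcc3, a basolateral exporter of bile acids and conjugates, had 1319 and 923 counts after treatment and 2377 and 2677 in control cells. Its level fell by 0.95 on the log2 scale (SE 0.14, adjusted p = 0.0465, edgeR), and this call was lost without either control library (adjusted p = 0.214 and 0.217, edgeR) and without TMM scaling (adjusted p = 0.0743, edgeR). Abcc2, the canalicular exporter, was the other abundant gene (log2 fold change -0.44, SE 0.29, adjusted p = 0.355, edgeR). Nr0b2, which encodes SHP, the repressor induced by FXR, had 4 and 2 counts in treated and 8 and 11 in control libraries and was not tested. Nr0b2 and Nr1h4 were both lower in both treated libraries, beside 4634 of the 13619 tested genes. Nr0b2 was near the floor of 3 counts, and a link between the genes was not tested. Abcb4, also of this list, overlapped between the groups (log2 fold change -0.064, SE 0.25, adjusted p = 0.883, edgeR).

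**Figure D4:**
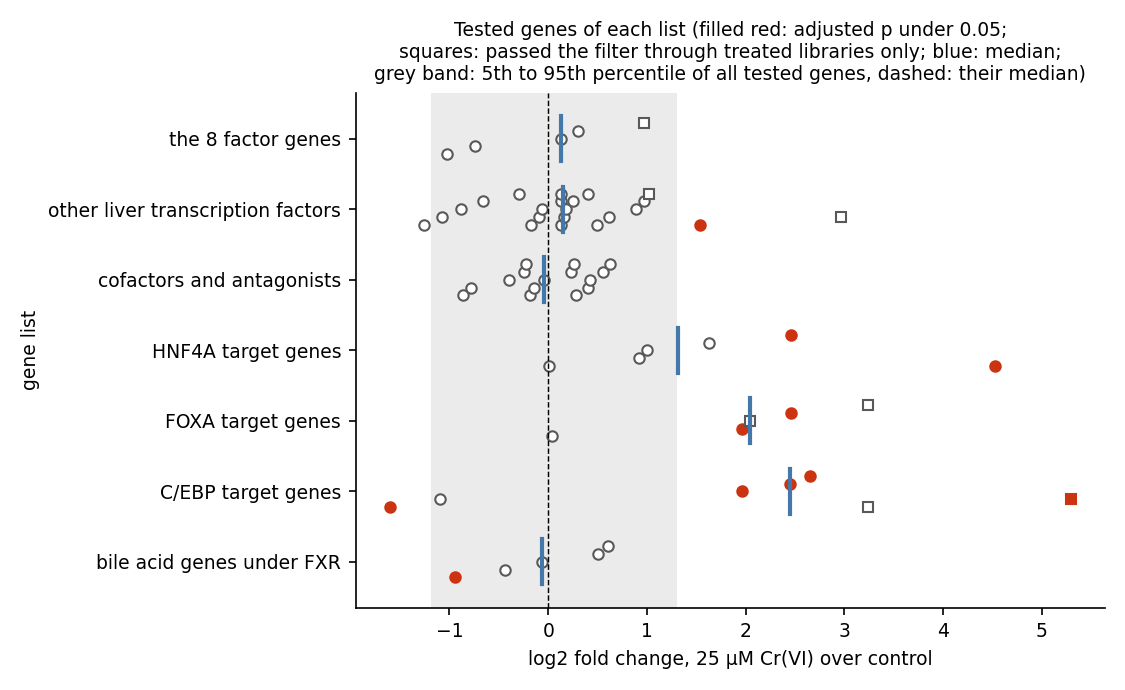
Fitted log2 fold change of 25 µM Cr(VI) over control for each tested gene of the 8 and of 6 lists of related genes, with the median of each list as a blue bar. Filled red symbols have an adjusted p under 0.05 in edgeR, squares passed the low-count filter only through treated libraries, and the grey band spans the middle 90% of all tested genes. The 5 tested genes of the 8 lie inside the band, and most called target genes lie above it.

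At the chromatin level, the question was whether regions opened by either regimen lay at these genes. The peak lists hold regions more open in treated than in control cells, so other open regions were not seen. The list for 25 µM Cr(VI) held 2945 peaks, and none fell within 10 kb of any of the 8 gene bodies, beside 9.41% of 21774 protein-coding genes with at least 1 such peak. None fell within 50 kb either. The list for 0.5 µM Cr(VI) held 860 peaks, and 1 of the 8 genes, Foxa3, had a peak within 10 kb, beside 3.09% of protein-coding genes. The paper reports slightly more opened peaks for each regimen than these lists hold. Peaks missing from the lists were not seen here, and the reason was not tested. With 1 library per condition these counts have no replicate check. The paper gives only an approximate number of reads per sample, so the exact depth behind the peaks is unknown.

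The peak beside Foxa3 lay at chr7:19023942-19024397 and was 456 bp wide. Its score, a MACS p-value as the negative log10 and multiplied by 10, was 61.0 and so under the score minimum of 100 tried as an alternative. Its centre was 630 bp upstream of the start of Foxa3, outside the promoter window used for sequence, and 208 bp from the start of Sympk, which encodes symplekin, a scaffold of mRNA end processing. Foxa3 and Sympk are divergent neighbours whose starts are 838 bp apart, and the peak covered 21 bp of a Sympk exon. The peak is thus nearer to Sympk than to Foxa3. The sequence of the peak had a GC content of 62.5% and held none of the 5 words searched. RNA of the 0.5 µM regimen was not analysed here. After 25 µM Cr(VI), Foxa3 had 2 to 11 counts per library, while Sympk stood at 130.3 ± 0.456 CPM against 119.4 ± 0.932 CPM in controls (SD, n = 2 each; log2 fold change 0.13, adjusted p = 0.437, edgeR).

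The other 7 genes were far from any peak of the 0.5 µM list. The nearest was 87024 bp upstream of an Hnf4a start, over Oser1 and 2900093K20Rik and 16 bp from a start site of the latter. Foxa2, Cebpb and Cebpa had theirs at 491271, 673729 and 772069 bp, and Foxa1, Nr1h4 and Onecut1 at 1411751, 1549391 and 2728748 bp. For all protein-coding genes the median distance to this list was 880060 bp, and 5 of the 8 genes lay nearer than that.

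For the 25 µM list the shortest distances were those of Cebpb, with a peak 101732 bp upstream of its start, Foxa2, with one 116488 bp downstream, and Hnf4a, with one 138832 bp downstream. The peaks nearest to Foxa1, Onecut1, Nr1h4 and Foxa3 were 361166, 382019, 516566 and 563721 bp away. Cebpa was the most remote, with 3968644 bp to its nearest peak. The median over protein-coding genes was 225864 bp, and 3 of the 8 lay nearer than that. Neither Foxa1 nor Nr1h4, the genes with lower RNA in both treated libraries, had a 25 µM peak within 50 kb.

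**Figure D5:**
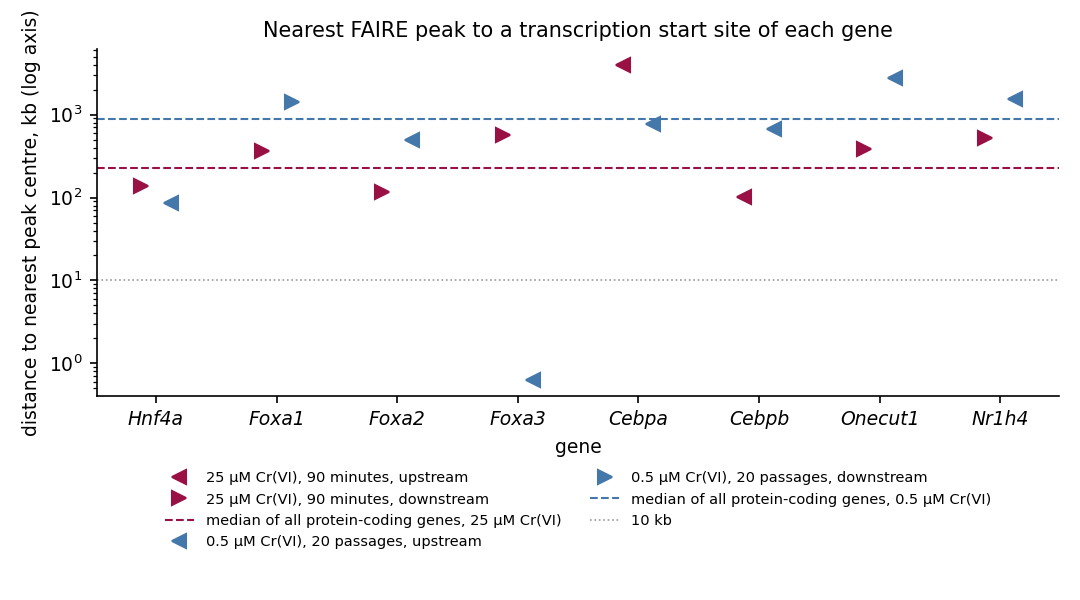
Distance in kb, on a log axis, from a start site of each of the 8 genes to the centre of the nearest FAIRE peak of each list. Triangles point left for peaks upstream and right for peaks downstream, dashed lines give the medians over protein-coding genes and the dotted line 10 kb. Only the 0.5 µM peak beside Foxa3 lies under 10 kb, at 630 bp.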

How the data were processed

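The RNA-seq counts per gene were deposited without normalization. The authors aligned reads to mm10 with TopHat and tested with DESeq (versions not given). The counting tool, annotation and use of strand are not given in the sources used here. The FAIRE peak score was deposited by the authors as 10 times the negative log10 p-value of MACS, at its default settings, each treated library against its control after alignment with BWA. The submitters' processing notes also name bcl2fastq and CASAVA 1.8.

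Symbols were taken from the table of RefSeq genes of GRCm38.p6, which held 23305 of the 23403 Entrez IDs. The 8 genes and the lists of related genes, 11 in all, were chosen from general knowledge, with earlier results of these data known. Genes passing filterByExpr (minimum count 10) entered edgeR's quasi-likelihood test (TMM, no block, two-sided, Benjamini-Hochberg threshold 0.05). Total counts ranged from 32319676 to 37696116 and the biological coefficient of variation was 0.193. Standard errors are the absolute log2 fold change over the square root of F. RPKM divides TMM-scaled CPM by the union of exons in RefSeq. The percentile of a level is over the tested genes with a length. A peak belonged to a gene if it overlapped the gene body extended by 10 kb. Promoter windows are RefSeq's, for 8 of 8 genes.

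Named in the text are the 8 genes with their values, the called genes of each list (at most 5 in each direction) and the 2 most abundant tested genes of each list. Others were named after their values were seen. Values of a few listed genes are not reported here. EdgeR called no gene of the 8, so none was compared with genes of like pattern. Tried as alternatives were a replicate block, no TMM, upper-quartile factors, no filter, DESeq2, each library left out, the length of the longest transcript, other extensions, peak centres and a score minimum of 100. The steps were tested on simulated data. Versions were Python 3.11.15, numpy 2.4.6, pandas 2.3.3 and matplotlib 3.10.9, and R 4.3.3 with DESeq2 1.42.0, limma 3.58.1 and edgeR 4.0.16.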

Additional observations from a re-analysis of the deposited data

How the results depend on the processing

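With 2 libraries a group, differences of the size seen for Foxa1 and Nr1h4 were called or not depending on the test. Of 45 refitted log2 fold changes of the 5 tested genes, 34 kept their direction and their side of the threshold. DESeq2 called Foxa1 (-0.74) and Nr1h4 (-1.03), 2 of the 6 genes of the 8 that it tested. It also called 6 other liver factors and 2 cofactors, beside 13.8% of its tested genes. Over all genes edgeR called 631 (243 rose and 388 fell), DESeq2 2000 (972 and 1028), no TMM 456 (141 and 315, median shifted to -0.11), no filter 777 and upper-quartile factors 627. Without TMM no bile acid gene was called (0), and without the filter 2 other liver factors were.

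Replicate numbers in the labels are shared by the groups but nothing ties them to a culture or day, and the deviations of same-numbered libraries correlated at 0.0909. With the number as a replicate block, 2969 of 13619 genes were called. Among them were Foxa1 (-0.76) and Nr1h4 (-1.04), 2 of the 8, with 7 other liver factors, 2 cofactors and 4 FOXA targets.

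Leaving out each library in turn, the log2 fold change ranged from -1.04 to -0.49 for Foxa1, -1.28 to -0.81 for Nr1h4, 0.034 to 0.52 for Foxa2, -0.0053 to 0.24 for Cebpb (below 0 without the second control; the cause was not tested) and 0.85 to 1.09 for Hnf4a, and their median from 0.034 to 0.37. Without Hnf4a, which passed the filter only through treated libraries, the median was -0.30 (added after seeing the data). The number called ranged from 0 to 4 of the 8, 1 to 19 of the other liver factors, 0 to 13 of the cofactors, 1 to 5 of the HNF4A, 0 to 5 of the FOXA and 3 to 8 of the C/EBP targets and 0 to 7 of the bile acid genes. Without a treated library 10995 or 9333 genes were called, since the spread then came from the controls alone. Without a control 294 or 287 were, the lone library being assumed to vary like the treated ones.

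With the length of the longest transcript, control levels were 10.6 RPKM for Foxa1, 25.0 for Foxa2 and 3.78 for Nr1h4. With gene bodies alone, or a score of at least 100, 0 of the 8 genes had a 0.5 µM peak. Of 8 refitted peak counts 6 did not change. Depth limits Hnf4a and Foxa3, where 3 counts stand for 0.0767 to 0.104 CPM.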

Other observations

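The ratio of Foxa2 to Foxa1 within a library, both in RPKM, was 4.53 and 4.72 in the libraries of 25 µM Cr(VI) and 2.21 and 2.28 in the controls. The log2 ratio was 1.04 higher in treated cells, with gaps of 0.060 between the treated and 0.042 between the control libraries, although the level of each gene differed by -0.56 and -0.50 log2 units between the treated libraries. The ratio of Foxa2 to Nr1h4 had a mean of 17.9 after treatment and 7.17 in control cells, a log2 difference of 1.32. These are 2 of the 6 ratios among Cebpb, Foxa2, Foxa1 and Nr1h4, picked after their values were seen. Of the 6, 5 did not overlap between the groups, each with an exact two-sided permutation p of 0.333, the smallest that 2 libraries against 2 can give. The ratio of Cebpb to Foxa2 overlapped (p = 0.667, exact permutation test). No ratio can pass the threshold in this design. The 6 ratios share genes, and Foxa1 and Nr1h4 were already described above as lower in both treated libraries. The count of 5 is therefore no support beyond the levels of the single genes. Among single tested genes, 66.3% had both treated libraries outside both controls. How often the ratios of other gene pairs separate was not tested.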
